A study of Homo sapiens with 6 samples.

Results

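The nuclear genes for subunits of respiratory complex III, complex IV and ATP synthase were described in HepG2 cells, a line from a human liver cancer, with and without an shRNA against circPRKAA1. Members were the rows of the deposited gene table whose symbol begins with UQCR, COX4I, COX5, COX6, COX7, COX8 or ATP5, without symbols that end like those of pseudogenes, and with at least 100 counts over the 6 libraries. They are 38 of the 60612 genes in the table, 9 of complex III, 11 of complex IV and 18 of ATP synthase, and the rule used no comparison between the groups. The subunits of the same enzymes that the mitochondrial genome encodes are not members and were used only for comparison.

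Complex III takes electrons from ubiquinol and hands them to cytochrome c, complex IV passes them from cytochrome c to oxygen, and both pump protons across the inner mitochondrial membrane. ATP synthase lets the protons flow back through a ring of c subunits in the membrane, and the turning of this ring drives the making of ATP in the F1 head. Each enzyme combines subunits from nuclear genes with a few from the mitochondrial genome, and in liver the chain carries electrons from the oxidation of fatty acids and other fuels.

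Both groups were HepG2 cells of genotype WT, per the labels, infected with a lentivirus. In the control group (sh-ctrl, 3 libraries) it carried a control shRNA, and in the knockdown group (sh-circPRKAA1, 3 libraries) an shRNA against circPRKAA1, a circular RNA from the PRKAA1 locus. The series asks how gene expression differs between them. No row of the table names a circular RNA, so the knockdown itself was not checked here. The labels call the cells epithelial in 1 place and mesenchymal in another. Of 9 hepatocyte markers, ALB, APOA1, AFP, APOB, SERPINA1 and TF stood at 1719 to 7389 CPM over all libraries, and TTR stood at 21.5 to 34.8 CPM. Of 4 epithelial markers, the keratins KRT8 and KRT18 fell by 0.50 and 0.43, EPCAM and CDH1 did not pass, and CDH1 stood at only 9.28 to 12.3 CPM. Of 7 mesenchymal markers, VIM, COL1A1, COL1A2, COL3A1 and THY1 had too few counts to be tested, as did the leukocyte genes PTPRC and CD3E and the endothelial genes VWF and CDH5. Of the other markers on these lists, LYZ stood at 601.9 to 845.3 CPM and fell by 0.38, and the mesenchymal CDH2 stood at 92.8 to 113.6 CPM and did not pass. PDGFRB, CD14 and PECAM1 stood at 0.834 to 6.89 CPM, PDGFRB fell by 0.65 and CD14 rose by 1.19. The 9 hepatocyte markers summed to 27600 to 28940 CPM in control and 27980 to 29050 CPM in knockdown libraries. Of these markers 5 fell and 1 rose (APOB), where 32.4% of all genes tested were called lower and 36.1% higher. HNF4A, a master regulator of hepatocyte genes, differed by -1.49 and APOA1 by -1.10 on the log2 scale, and the part of these differences in the results below was not tested.

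Libraries held 16284262 to 20282496 counts. The members took 0.734, 0.693 and 0.696% of the counts in control libraries 1 to 3 and 0.605, 0.616 and 0.574% in knockdown libraries 1 to 3. Each member had between 2924 and 87507 counts in all. Counting (Poisson) error per library was 0.749 to 4.97% of a member's level, and the spread between libraries was below it for 4 members among controls (ATP5MD, ATP5PO, UQCRFS1 and UQCRHL) and for 2 among knockdown libraries (UQCRC2 and ATP5MF). Levels are given as CPM (counts relative to the TMM-adjusted total of the library), and levels of different genes are compared as FPKM, which divides by exonic length. Changes are log2 differences, knockdown minus control, tested with edgeR and adjusted by Benjamini-Hochberg over all 14990 genes tested. A change is called at an adjusted p under 0.05.

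All 38 members passed the filter on low counts. In the knockdown libraries 28 of them fell, 2 rose (UQCRB and COX6C) and 8 did not pass the test. Of all genes tested 68.4% were called, 32.4% as lower and 36.1% as higher. The median change of the members was -0.43 and that of all genes tested 0.05. The genes tested were not matched to the members in expression level, with which the change also moved, as given further on. Members ranged from -1.04 for ATP5MC1 to 0.36 for UQCRB. The knockdown libraries lay below all control libraries in 28 members, above them in 1 (UQCRB), and overlapped them in 9, where among all genes tested 34.1% lay below and 38% above. In complex III 8 members fell and 1 rose (median -0.60), in complex IV 6 fell and 1 rose (median -0.19), and in ATP synthase 14 fell and none rose (median -0.35). In bulk RNA, fewer transcripts per cell and a changed mix of cells cannot be told apart.

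**Figure D1:**
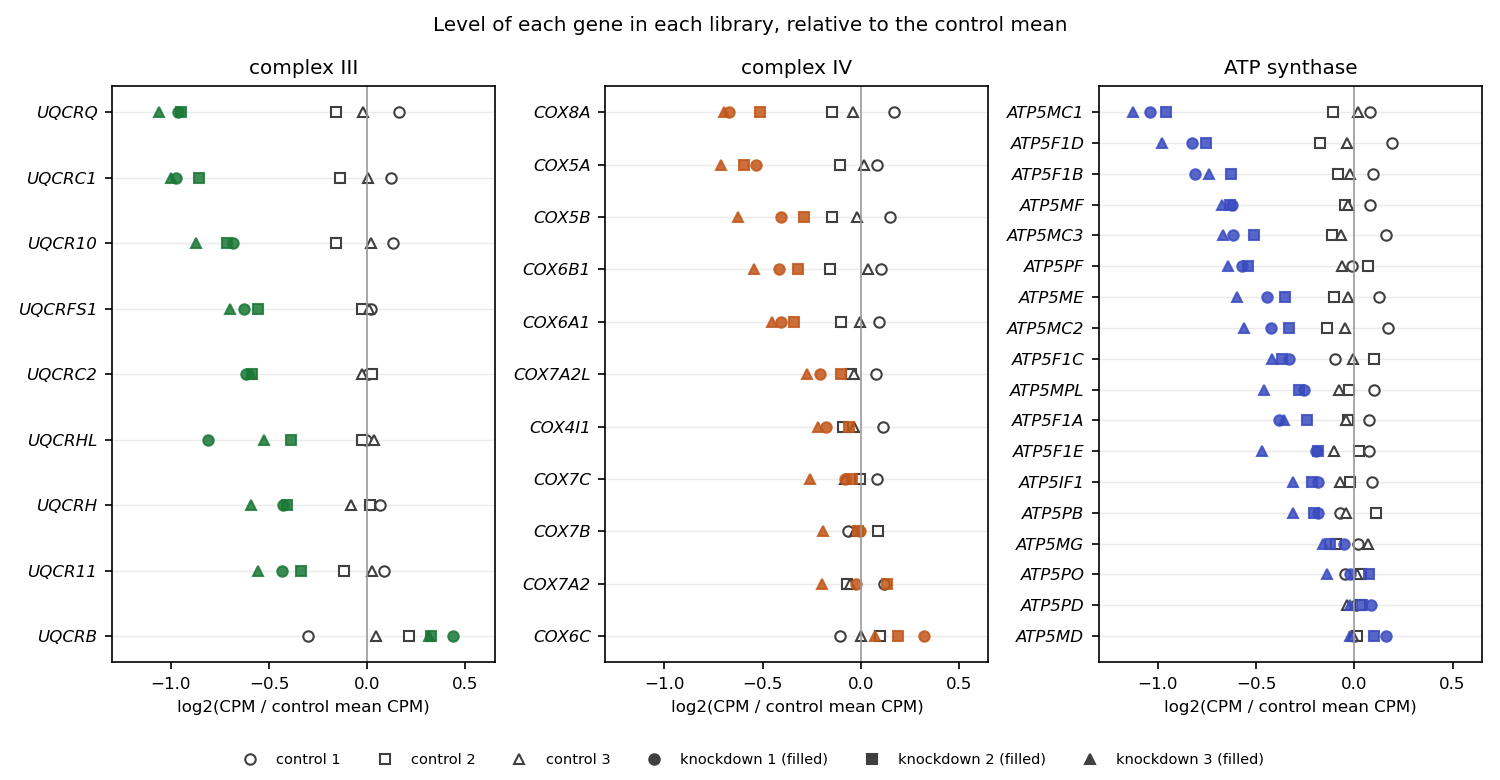
Each row is a gene and each symbol a library, placed at log2 of its CPM over the mean CPM of the 3 control libraries (open symbols control, filled symbols knockdown, 3 libraries each, TMM scaling). Knockdown symbols lie to the left of all control symbols in 28 of 38 rows, and to the right only in the row of UQCRB.

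The level of these calls depends on how libraries are scaled, since the median of all genes tested lay at 0.05 (TMM), 0.25 (library totals) and 0.34 (TPM scaling), and at -0.02 after quantile normalization. Relative to that median, the members' median was -0.48 with TMM and with library totals, -0.47 with TPM scaling and -0.20 after quantile normalization. TMM, library totals and TPM scaling each apply a single factor per library, which moves all genes nearly alike. Their near-equal values followed from that and add no support, while quantile normalization could differ. With TPM scaling 14 members were lower and 10 higher, where 19.5% and 49.8% of all genes were. With library totals 22 were lower and 4 higher (23.7% and 45.5% of all genes), and after quantile normalization 21 and 4 (34.5% and 32.6% of all genes). By enzyme with TPM scaling, 6 of complex III were lower and 1 higher, 2 and 5 of complex IV, and 6 and 4 of ATP synthase. Relative to all genes, the complex IV median was -0.24 with TMM and with TPM scaling, near-equal for the same reason. After quantile normalization it was -0.006, against -0.44 for complex III and -0.14 for ATP synthase. Under every alternative run 14 members were called lower: UQCRC1, UQCRC2, UQCRFS1, UQCRH, UQCRQ and UQCR10 of complex III, COX5A and COX8A of complex IV, and ATP5F1B, ATP5F1D, ATP5MC1, ATP5MC3, ATP5MF and ATP5PF of ATP synthase.

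The 3 largest falls were in ATP5MC1 (a gene for the c subunit), UQCRQ (a small subunit of complex III that sits beside cytochrome b) and UQCRC1 (a core subunit of complex III). In GRCh38, ATP5MC1 lies on chromosome 17 at 48892765 to 48895871 (plus strand), UQCRQ on chromosome 5 at 132866630 to 132868847 (plus strand) and UQCRC1 on chromosome 3 at 48599002 to 48610976 (minus strand). Their promoters are shown with that of COX7B, a complex IV gene whose change did not pass, because nuclear respiratory genes are known to share binding sites for the factors NRF1, GABP (an ETS factor) and YY1. Each window runs from 250 bases before to 50 bases after a start site in RefSeq (GRCh38.p14), read 5′ to 3′ on the strand of the gene, and capitals mark a match on either strand to GCGCANGCG (NRF1), CCGGAAG (ETS) or AANATGGC (YY1).
ATP5MC1 promoter, chr17:48892537-48892836, plus strand: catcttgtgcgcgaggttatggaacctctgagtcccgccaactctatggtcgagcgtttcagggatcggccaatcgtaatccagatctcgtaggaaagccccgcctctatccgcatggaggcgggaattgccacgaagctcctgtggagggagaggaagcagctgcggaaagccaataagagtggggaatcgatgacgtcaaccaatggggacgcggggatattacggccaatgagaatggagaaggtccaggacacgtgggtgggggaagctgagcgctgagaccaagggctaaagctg
UQCRQ promoter, chr5:132866392-132866691, plus strand: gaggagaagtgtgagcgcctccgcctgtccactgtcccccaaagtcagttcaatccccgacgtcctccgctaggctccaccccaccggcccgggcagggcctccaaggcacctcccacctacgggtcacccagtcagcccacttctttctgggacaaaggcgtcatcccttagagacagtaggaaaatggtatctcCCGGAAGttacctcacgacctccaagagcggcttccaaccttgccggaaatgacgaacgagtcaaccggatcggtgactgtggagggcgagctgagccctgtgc
UQCRC1 promoter, chr3:48609597-48609896, minus strand: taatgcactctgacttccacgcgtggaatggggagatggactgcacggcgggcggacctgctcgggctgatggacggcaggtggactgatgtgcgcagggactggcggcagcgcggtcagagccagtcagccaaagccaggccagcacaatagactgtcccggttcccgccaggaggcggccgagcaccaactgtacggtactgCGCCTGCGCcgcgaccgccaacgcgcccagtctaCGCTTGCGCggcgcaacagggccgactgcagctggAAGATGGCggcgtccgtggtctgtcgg
COX7B promoter, chrX:77899218-77899517, plus strand: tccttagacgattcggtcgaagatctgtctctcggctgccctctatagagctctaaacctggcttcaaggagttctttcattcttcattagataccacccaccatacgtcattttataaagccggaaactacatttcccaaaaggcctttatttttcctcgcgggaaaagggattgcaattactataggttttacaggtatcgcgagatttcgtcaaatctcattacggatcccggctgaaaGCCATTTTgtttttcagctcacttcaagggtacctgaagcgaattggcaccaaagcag
The UQCRC1 window holds 2 matches to the NRF1 letters and 1 to the YY1 letters, the UQCRQ window holds 1 to the ETS letters, the COX7B window 1 to the YY1 letters, and the ATP5MC1 window none of the 3.

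RefSeq windows matched 31 of the 38 members, and some genes have more than 1 window. Among these 31 genes, 11 (35.5%) held the NRF1 letters, 14 (45.2%) the ETS letters and 12 (38.7%) the YY1 letters in at least 1 window. Among 27303 genes with windows of the same length the shares were 9.02%, 12.2% and 7.97%. These genes were not limited to expressed or protein-coding ones and not matched to the members in promoter GC content. Of the 23 matched members that fell, 10 held the NRF1 letters, 10 the ETS letters and 9 the YY1 letters. Of the 8 that did not pass, the numbers were 1, 4 and 3. The letters of the 3 motifs do not overlap one another in the windows shown, and a match describes the letters only.

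In complex III 2 core proteins form the large part that faces the matrix. UQCRC1 stood at 482.6, 403.1 and 444.1 CPM in control libraries 1 to 3 and at 225.4, 245.2 and 221.5 CPM in knockdown libraries 1 to 3. The groups did not overlap, and UQCRC1 fell by 0.94 in log2 units (SE 0.08, edgeR adjusted p = 3.40e-08). UQCRC2, the other core protein, stood at 326.2, 330.7 and 320.3 CPM in control and at 212.0, 216.8 and 216.1 CPM in knockdown libraries. It also fell without overlap (log2 difference -0.60, SE 0.07, edgeR adjusted p = 6.61e-07). UQCRFS1, the Rieske iron-sulfur protein that carries electrons from ubiquinol to cytochrome c1, went from 127.4, 123.5 and 126.6 CPM to 81.5, 85.5 and 77.5 CPM. Its control libraries lay close together and all above the knockdown libraries, and it fell by 0.63 (SE 0.07, edgeR adjusted p = 1.31e-06).

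The small subunits of complex III did not move together. UQCRQ stood at 175.8, 141.0 and 155.3 CPM in control and at 80.8, 81.5 and 75.6 CPM in knockdown libraries, and fell by 0.99 (SE 0.09, edgeR adjusted p = 4.94e-08). UQCR10, a small subunit beside cytochrome c1, fell by 0.75, and UQCR11, another small subunit, fell by 0.44. UQCRH, the acidic hinge protein where cytochrome c docks, fell from 243.9, 235.8 and 220.7 CPM to 173.4, 176.1 and 155.1 CPM (log2 difference -0.47, SE 0.07, edgeR adjusted p = 3.47e-05). UQCRHL, a near-identical copy of UQCRH, changed by -0.56, but reads of the 2 genes cannot be told apart with certainty. The ratio of UQCRHL to UQCRH counts, 0.134 to 0.153 in control and 0.108 to 0.148 in knockdown libraries, overlapped between the groups.

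UQCRB, a small subunit near the site where ubiquinone binds, was the member with the largest rise. It stood at 94.0, 134.4 and 119.5 CPM in control and at 157.2, 145.5 and 144.0 CPM in knockdown libraries. The groups did not overlap, control library 1 was the lowest, and the coefficient of variation among controls, 17.6%, was the largest of all members (median 6.53%). UQCRB rose by 0.36 (SE 0.10, edgeR adjusted p = 0.00547), and by 0.21 without control library 1. With offsets per library for GC content and exonic length, described further on, its change was -0.35 (edgeR adjusted p = 5.84e-06), so its direction depended on that setting. The ratio of UQCRB to UQCRQ counts, which no single scaling factor per library alters, was 0.535, 0.953 and 0.769 in control and 1.95, 1.79 and 1.91 in knockdown libraries. This ratio was higher in all knockdown libraries, by 1.36 on the log2 scale, and by 0.53 with the offsets, which differ from gene to gene. The pair sets the highest change in complex III over the lowest, so a higher ratio followed from that choice and adds no support. Calls in complex III lost under a scaling were UQCR11 and UQCRHL, at -0.14 and -0.27 with TPM scaling.

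Complex IV has its catalytic centre in subunits from the mitochondrial genome, around which nuclear subunits are arranged. COX5A, a subunit on the matrix side, stood at 154.6, 136.1 and 148.0 CPM in control and at 100.9, 96.9 and 89.2 CPM in knockdown libraries. It fell without overlap (log2 difference -0.61, SE 0.08, edgeR adjusted p = 3.70e-06). COX8A, the smallest membrane-spanning subunit, went from 191.8, 154.4 and 166.1 CPM to 107.1, 119.8 and 105.3 CPM. It fell by 0.62 (SE 0.09, edgeR adjusted p = 9.88e-06), again with all knockdown libraries below all control libraries. COX5B, a matrix-side subunit that binds zinc (log2 difference -0.43), COX6B1, on the side of the intermembrane space (-0.42), and COX6A1, the widely expressed isoform of its subunit (-0.40), also fell. These 3 falls missed the threshold with TPM scaling, at -0.14, -0.13 and -0.10, and COX5B also after quantile normalization, at -0.19.

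COX7A2L, which joins complex III to complex IV in supercomplexes, stood at 237.3, 217.6 and 219.7 CPM in control and at 194.8, 209.9 and 185.7 CPM in knockdown libraries, and fell by 0.19 (SE 0.07, edgeR adjusted p = 0.0275). The call was lost without knockdown library 1 (-0.19) and without knockdown library 3 (-0.16) and at a mean FPKM of at least 1 (-0.14), and the change, not called, was 0.01 with library totals, 0.10 with TPM scaling and 0.05 after quantile normalization. With the offsets COX7A2L was at -0.49. COX6C, a membrane-spanning subunit, was at 88.2, 101.3 and 94.9 CPM in control and at 118.4, 108.1 and 99.8 CPM in knockdown libraries. These groups overlapped, because knockdown library 3 lay below control library 2, and COX6C rose by 0.20 (SE 0.08, edgeR adjusted p = 0.0443). Its call was lost without control library 1 (0.13), control library 3 (0.17), knockdown library 1 (0.13) or knockdown library 2 (0.20), with DESeq2 (0.15), median of ratios (0.16), no filter on low counts (0.16), and with the GC and length offsets (-0.06).

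The other 4 members of complex IV did not pass, and their groups overlapped. COX4I1, the subunit through which ATP regulates the enzyme, stood at 273.5, 237.1 and 246.7 CPM in control and at 223.3, 242.5 and 216.9 CPM in knockdown libraries (-0.15, 95% interval -0.31 to 0.01). COX4I1 was called lower without control library 2 (-0.24), with DESeq2 (-0.20), with no filter on low counts (-0.18) and with the offsets (-0.23), and called higher with TPM scaling (0.15). COX7A2, the isoform of subunit 7A found outside muscle, had a change of -0.02 (95% interval -0.21 to 0.17), COX7B, a membrane-spanning subunit, of -0.07 (-0.25 to 0.11), and COX7C, another, of -0.13 (-0.29 to 0.04). With the offsets these 3 were called lower, at -0.22, -0.36 and -0.52, and with TPM scaling higher, at 0.27, 0.23 and 0.17. COX6C over COX8A in counts was 0.460, 0.656 and 0.571 in control and 1.11, 0.902 and 0.948 in knockdown libraries. This ratio was higher by 0.82 on the log2 scale without overlap, and by 0.21 with the offsets. The pair sets the highest change in complex IV over the lowest, so the direction of the ratio followed from that choice. The count ratio of COX7A2 to COX7A2L was 0.459, 0.439 and 0.439 in control and 0.506, 0.524 and 0.471 in knockdown libraries, higher by 0.17, and by 0.26 with the offsets.

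The F1 head of ATP synthase, where ATP is made, is built from the alpha and beta subunits. ATP5F1B, the catalytic beta subunit, stood at 1105, 977 and 1019 CPM in control and at 589.5, 668.2 and 618.2 CPM in knockdown libraries. It was the member with the most counts, and it fell without overlap (log2 difference -0.73, SE 0.07, edgeR adjusted p = 3.57e-07). ATP5F1A, the alpha subunit, stood at 691.4, 640.2 and 635.9 CPM in control and at 502.5, 554.6 and 510.9 CPM in knockdown libraries, and fell by 0.33 (SE 0.07, edgeR adjusted p = 0.000651). Its call was lost with library totals (-0.13), TPM scaling (-0.03), quantile normalization (0.06) and limma on either log2 FPKM scale (-0.13), and with the offsets its change was -0.65. The ratio of ATP5F1B to ATP5F1A counts was 1.60, 1.53 and 1.60 in control and 1.17, 1.21 and 1.21 in knockdown libraries, a log2 difference of -0.40 without overlap. With the offsets, which differ from gene to gene, this difference was 0.05, so its direction depended on that setting.

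The central stalk turns inside the head and consists of gamma, delta and epsilon. ATP5F1D, the delta subunit, fell from 134.3, 104.1 and 114.7 CPM to 66.4, 69.7 and 59.7 CPM (log2 difference -0.85, SE 0.10, edgeR adjusted p = 8.98e-07). ATP5F1C, the gamma subunit, fell by 0.37, and ATP5F1E, the epsilon subunit, fell by 0.28. All knockdown libraries lay below all control libraries for each of the 3. ATP5F1C missed the threshold with TPM scaling (-0.08) and quantile normalization (-0.10), and ATP5F1E with library totals (-0.08), limma (-0.08), quantile normalization (-0.03) and without knockdown library 3 (-0.19), with 0.02 under TPM scaling. With the offsets the change of ATP5F1E was -0.81. ATP5IF1, the inhibitor that stops the enzyme from splitting ATP when the membrane potential is lost, stood at 166.7, 154.5 and 148.9 CPM in control and at 137.8, 135.1 and 126.3 CPM in knockdown libraries, and fell by 0.24 (SE 0.07, edgeR adjusted p = 0.00967). Without knockdown library 3 the change of ATP5IF1 was -0.20 and not called. The call was also lost with library totals (-0.03), quantile normalization (-0.02), limma (-0.04) and TPM scaling (0.06).

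The peripheral stalk holds the head still against the membrane part. ATP5PF, coupling factor F6, fell from 90.3, 95.5 and 87.2 CPM to 61.3, 62.6 and 58.3 CPM (log2 difference -0.58, SE 0.08, edgeR adjusted p = 4.57e-06). It shares 413 exon bases with GABPA on the other strand, whose level was 11.3, 19.0 and 14.3 CPM in control and 26.2, 23.3 and 26.1 CPM in knockdown libraries, and the strand setting of the counting is not given in the sources used here. ATP5PB, subunit b, fell by 0.23, a call lost without knockdown library 3 (-0.20) and with library totals (-0.03), TPM scaling (0.06), quantile normalization (-0.05) or limma (-0.03). ATP5PD, subunit d, had a change of 0.04 (95% interval -0.11 to 0.19) and ATP5PO, the oligomycin sensitivity protein at the top of the stalk, of -0.03 (-0.21 to 0.16). Both overlapped between the groups. With TPM scaling they were called higher, at 0.33 and 0.27, and ATP5PD also with library totals (0.24), quantile normalization (0.23) and limma (0.23 or 0.24 by pseudocount). With the offsets their changes were -0.10, which did not pass, and -0.20, called lower. ATP5PB shares 350 exon bases with WDR77 and ATP5PD 340 with KCTD2, both on the other strand. The largest overlap on the other strand was that of ATP5F1E with TUBB1, at 1188 exon bases. TUBB1 had 275 counts in all, against 23832 for ATP5F1E.

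Of 5 small subunits around the membrane part, 3 fell. ATP5MF, subunit f, fell from 233.6, 213.7 and 215.8 CPM to 143.6, 142.5 and 138.4 CPM (log2 difference -0.64, SE 0.07, edgeR adjusted p = 6.25e-07). ATP5ME, subunit e, fell by 0.46, and ATP5MPL, a small proteolipid, fell by 0.33. ATP5ME shares 579 exon bases with MYL5 on the other strand, and MYL5 had 741 counts in all, against 4522 for ATP5ME. ATP5ME missed the threshold with TPM scaling (-0.16), and ATP5MPL with library totals (-0.13), limma (-0.13) and TPM scaling (-0.03). ATP5MG, subunit g, which works with subunit e in joining ATP synthase dimers, had a change of -0.11 (95% interval -0.27 to 0.05), and it was called lower without control library 2 (-0.20) and with the offsets (-0.63), and called higher with TPM scaling (0.19). ATP5MD, a small subunit known from studies of dimer stability, stood at 78.6, 79.5 and 78.4 CPM in control and at 88.1, 84.4 and 77.5 CPM in knockdown libraries, a change of 0.08 (-0.08 to 0.24). It was called higher with TPM scaling (0.38), library totals (0.28), limma (0.27 or 0.28 by pseudocount), quantile normalization (0.21) and the offsets (0.15). The ratio of ATP5MD to ATP5MC1 counts was 0.726, 0.838 and 0.756 in control and 1.77, 1.60 and 1.66 in knockdown libraries, higher by 1.12 on the log2 scale. This pair sets the highest change in ATP synthase over the lowest, so the direction of the ratio followed from that choice.

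**Figure D2:**
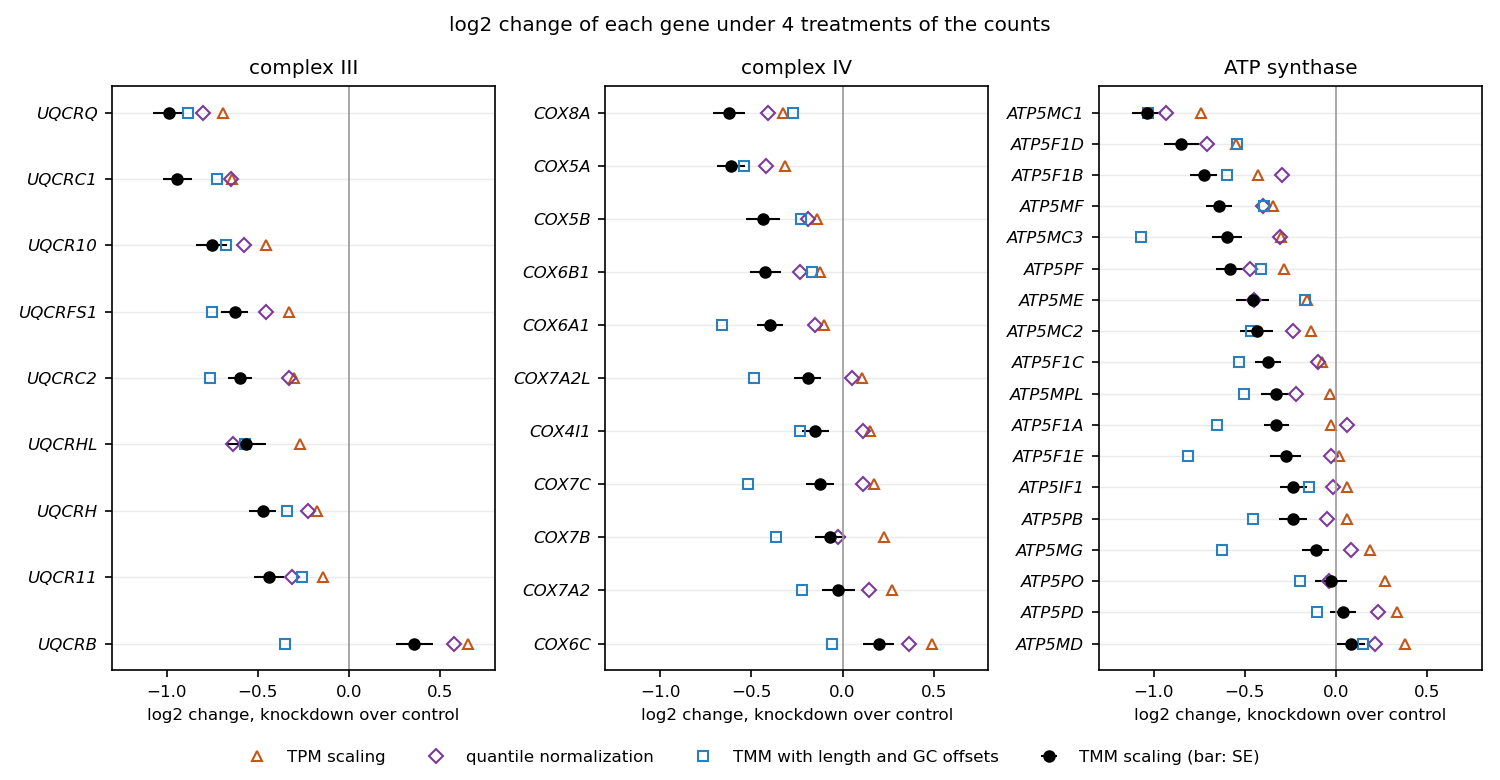
Each row is a gene and the horizontal axis its log2 change, knockdown minus control, with TMM scaling (black, bar SE, n = 3 against 3), TPM scaling, quantile normalization and TMM with offsets for length and GC content. Complex III lies left of 0 under all 4 treatments except UQCRB, while COX4I1, COX7A2, COX7A2L, COX7C, ATP5MG and ATP5F1A are among the rows whose symbols lie on both sides of 0.

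The c subunit comes from 3 genes whose mature protein is the same and which differ in the leader that takes the protein into mitochondria. The coding ends of ATP5MC1, ATP5MC2 and ATP5MC3 are shown because the reads of the 3 genes have to be told apart by such differences. Each is the last 231 coding bases before the stop codon (77 codons for the same residues in all 3 genes), spliced, from GENCODE 29 transcripts, and capitals mark the 57 positions at which the 3 are not all the same. In the genome (GRCh38) they lie at chr17:48895216-48895766, chr12:53665317-53669266 and chr2:175178291-175179175.
ATP5MC1 coding end, plus strand: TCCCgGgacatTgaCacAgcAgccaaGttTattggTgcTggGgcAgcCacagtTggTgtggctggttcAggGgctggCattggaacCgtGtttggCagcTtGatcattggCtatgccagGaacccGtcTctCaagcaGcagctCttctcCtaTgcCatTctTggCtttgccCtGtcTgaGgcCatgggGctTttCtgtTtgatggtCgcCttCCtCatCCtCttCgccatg
ATP5MC2 coding end, minus strand: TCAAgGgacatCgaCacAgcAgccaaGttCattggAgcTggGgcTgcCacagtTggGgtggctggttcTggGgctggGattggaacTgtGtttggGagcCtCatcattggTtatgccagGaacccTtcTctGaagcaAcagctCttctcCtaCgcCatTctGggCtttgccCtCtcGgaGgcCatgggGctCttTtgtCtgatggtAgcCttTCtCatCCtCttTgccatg
ATP5MC3 coding end, minus strand: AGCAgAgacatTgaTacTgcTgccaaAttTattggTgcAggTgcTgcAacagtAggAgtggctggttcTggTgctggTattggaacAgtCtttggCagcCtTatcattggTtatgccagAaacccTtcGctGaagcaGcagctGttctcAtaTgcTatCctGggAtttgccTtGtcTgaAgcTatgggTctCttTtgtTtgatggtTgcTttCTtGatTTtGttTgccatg
Of these 57 positions 49 are at the last base of a codon. ATP5MC1 and ATP5MC2 were identical at 204 of 231 bases (88.3%), and ATP5MC3 was identical to either at 185 (80.1%). GC content of the stretch was 55.4% in ATP5MC1, 55.0% in ATP5MC2 and 45.9% in ATP5MC3.

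All 3 genes fell, and ATP5MC1 the most. ATP5MC1 stood at 108.3, 94.9 and 103.7 CPM in control and at 49.8, 52.6 and 46.8 CPM in knockdown libraries, and fell by 1.04 (SE 0.08, edgeR adjusted p = 1.75e-08). ATP5MC2 stood at 148.8, 119.7 and 127.5 CPM in control and at 98.4, 104.9 and 89.3 CPM in knockdown libraries, and fell by 0.43 (SE 0.09, edgeR adjusted p = 0.00045). ATP5MC3 stood at 436.6, 361.1 and 372.5 CPM in control and at 254.1, 273.3 and 245.4 CPM in knockdown libraries, and fell by 0.60 (SE 0.08, edgeR adjusted p = 7.04e-06). None of these groups overlapped, and the fall of ATP5MC2 missed the threshold with TPM scaling (-0.14).

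As a share of the summed FPKM of the 3 genes within each library, which no single scaling factor per library changes, ATP5MC1 took 28.8, 30.2 and 31.2% in control and 23.3, 23.1 and 23.2% in knockdown libraries. Its mean share went from 30.0 ± 1.20% to 23.2 ± 0.134% (SD, n = 3 each, exact two-sided permutation p = 0.1). The share of ATP5MC2 went from 25.9 ± 0.528% to 30.5 ± 0.625%, and that of ATP5MC3 from 44.1 ± 0.811% to 46.4 ± 0.607% (SD, n = 3 each, exact two-sided permutation p = 0.1 for both). The groups did not overlap in any of the 3 shares, and 0.1 is the smallest p that 3 libraries against 3 allow. The 3 p-values belong to 1 set of shares that sum to the whole, and adjusted over the 3 they are 0.1. With the offsets the changes were -1.03 for ATP5MC1, -0.47 for ATP5MC2 and -1.07 for ATP5MC3. ATP5MC1 was then no longer the gene that fell the most, so the balance between ATP5MC1 and ATP5MC3 depended on that setting. A share within a library does not remove effects that differ from gene to gene.

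**Figure D3:**
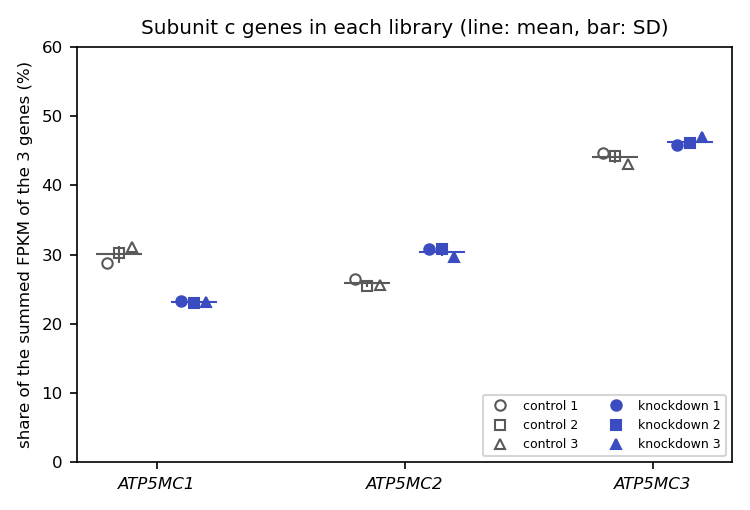
The vertical axis is the share (%) of each gene in the summed FPKM of ATP5MC1, ATP5MC2 and ATP5MC3 in a library, for 3 control (open) and 3 knockdown (filled) libraries, with mean (line) and SD (bar). The ATP5MC1 share was between 28.8 and 31.2% in control and between 23.1 and 23.3% in knockdown libraries.

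Per length, levels differed widely between subunits of the same enzyme in control libraries. ATP5F1B (430.1 FPKM), COX8A (321.8), COX6A1 (190.7) and UQCRH (162.2) were the highest, and UQCRB (8.59), ATP5PO (10.9), UQCRHL (14.1) and COX7B (16.2) the lowest. The exonic length in the table joins all transcripts of a gene (12600 bases for UQCRB and 10908 for ATP5F1A, against 494 for COX8A), which lowers the FPKM of genes with long rare transcripts. Isoforms that other tissues use were at or near 0. COX6A2 and COX8C had 0 counts in the 6 libraries, COX4I2 had 8, COX7A1 10, COX7B2 11 and COX6B2 14. COX6B2, the testis isoform of subunit 6B, stood just outside the rule with 0, 1 and 0 counts in control and 9, 2 and 2 in knockdown libraries, while the member nearest to the minimum, UQCRHL, had 2924. Pseudogene rows held 625 counts, 0.0895% of the members' counts, of which UQCRFS1P1 had 300 and COX6A1P2 175.

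The mitochondrial genome encodes the catalytic subunits of complex IV, cytochrome b of complex III and subunits a and A6L of ATP synthase. MT-CO1 stood at 25410, 23480 and 25120 CPM in control libraries and at 29590, 32310 and 28220 CPM with the knockdown, and rose by 0.28 (SE 0.08, edgeR adjusted p = 0.00589). MT-CO3 rose by 0.21 (edgeR adjusted p = 0.0328) and MT-CYB fell by 0.19 (edgeR adjusted p = 0.0426), with overlapping groups for MT-CYB. MT-CO2 (-0.15), MT-ATP6 (0.11) and MT-ATP8 (-0.17) did not pass. After quantile normalization the changes of MT-CO1, MT-CO3 and MT-CYB were 0.00, -0.06 and 0.09, and MT-CYB was at 0.10 with TPM scaling. Quantile normalization gives the same value to the same rank in every library, so a gene that keeps its rank shows no change. MT-CO1 was the highest of the genes named here in every library. Its 0.00 may thus be set by its rank and does not test its rise.

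Within a library, the summed FPKM of nuclear members over that of the mitochondrial subunits needs no scaling between libraries. For complex III over MT-CYB it was 0.156, 0.166 and 0.158 in control and 0.115, 0.115 and 0.116 in knockdown libraries. For complex IV over MT-CO1, MT-CO2 and MT-CO3 it was 0.0278, 0.0260 and 0.0250 in control and 0.0181, 0.0184 and 0.0183 in knockdown libraries. For ATP synthase over MT-ATP6 and MT-ATP8 it was 0.208, 0.220 and 0.197 in control and 0.141, 0.143 and 0.154 in knockdown libraries. All 3 ratios were lower in every knockdown library than in every control library, with log2 differences of -0.47, -0.52 and -0.51 (log2 SD within groups 0.01 to 0.08). Such a ratio moves with either of its parts. In the complex IV denominator MT-CO1 rose by 0.28 and MT-CO3 by 0.21. The share of complex IV members in all counts overlapped between the groups (0.184, 0.168 and 0.172% in control, 0.169, 0.173 and 0.155% in knockdown libraries). Those of complex III and ATP synthase did not. With TMM scaling the summed CPM of complex IV was 1778 to 2002 in control and 1437 to 1642 in knockdown libraries.

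**Figure D4:**
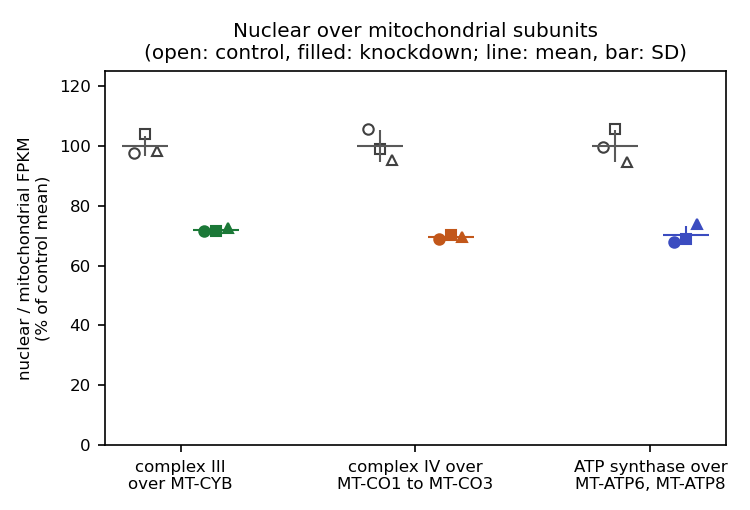
The vertical axis is the summed FPKM of nuclear members over the summed FPKM of mitochondrial subunits of the same enzyme, in % of the control mean, for 3 control (open) and 3 knockdown (filled) libraries with mean (line) and SD (bar). Knockdown libraries lie below all control libraries for each of the 3 enzymes, at log2 differences of -0.47, -0.52 and -0.51.

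The GC content of a gene moved with its change. Over the 38 members Pearson's r between log2 change and GC content of the longest transcript was -0.60, over 14863 genes tested it was -0.31, and the points share the same 6 libraries. Control library 2 minus control library 1 also followed GC content, with r = -0.54 over the members and -0.55 over all genes. These libraries of the same group thus differed in this way. Other pairs were not set against GC content, and this pair differed the most (chi-square per degree of freedom 14.7, others 3.56 to 6.87). Of 15 members with a GC content up to 45%, 7 fell and 2 rose, with a median of -0.13, where 14.2% of all 5317 genes of that range were lower and 55% higher, with a median of 0.40. Of 12 members between 45 and 50%, 10 fell (median -0.52), where 32.2% of all 2652 genes were lower and 33.6% higher (median 0.02). All 11 members above 50% fell (median -0.62), where 46.6% of all 6894 genes were lower and 22.6% higher (median -0.25). In each of the 3 ranges the members' median was thus below that of all genes. The change also moved with expression level, with r = -0.28 between log2 change and log2 mean CPM over all genes and -0.15 over the members. With the offsets described next, this r was -0.33 over all genes and over the members. Members were not set against genes of like level, so the part of level in their lower median was not tested.

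With offsets for GC content and exonic length fitted to each library, r over the members was 0.17, and 35 members were lower and 1 higher (ATP5MD), where 40.5% and 29.2% of all genes were. Their median was -0.48 and that of all genes -0.09. UQCRB was then called lower (-0.35), while COX6C (-0.06) and ATP5PD (-0.10) did not pass. Of the members called without offsets, 7 then had a change over 1.5 times as large, with ATP5F1E the most so, and 8 one over 1.5 times smaller in the same direction, with ATP5ME (-0.17) and COX6B1 (-0.17) the most so. Control library 1 was the highest control in 26 members, and knockdown library 3 the lowest knockdown library in 34. Without knockdown library 3, 24 members were lower and 2 higher, where 29.4% and 32.5% of all genes were.

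**Figure D5:**
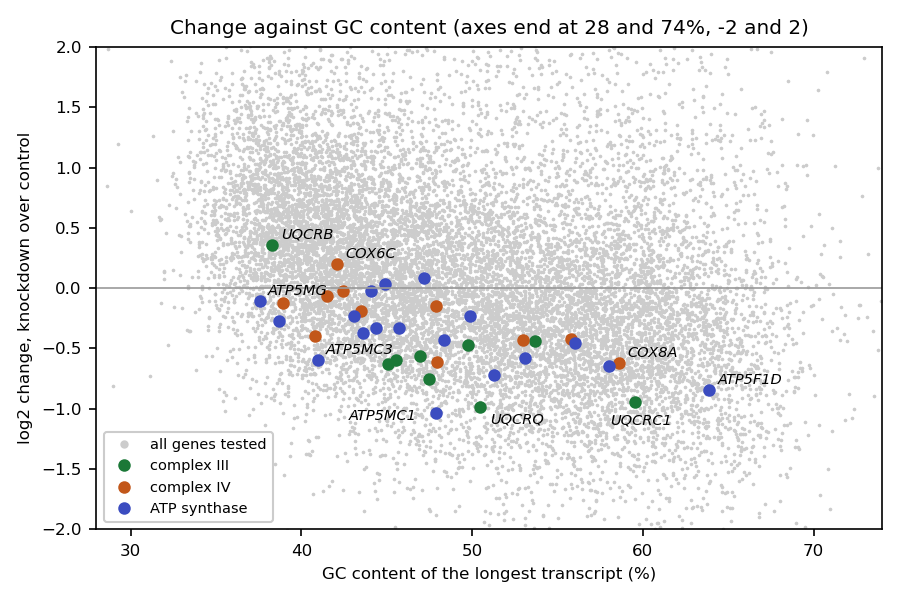
Each point is a gene, with the GC content (%) of its longest transcript on the horizontal axis and its log2 change, knockdown minus control (TMM scaling), on the vertical axis. Members are coloured by complex over all genes tested (grey, of which 608 of 14863 lie outside the axes). UQCRB and COX6C, at 38.3 and 42.1% GC, lie above 0, and all members above 50% GC lie below it.

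Genes that work with the members were taken from lists. CYC1, cytochrome c1 of complex III, whose symbol the rule does not take, fell from 254.4, 194.8 and 221.8 CPM to 116.6, 113.4 and 102.9 CPM (log2 difference -1.01, SE 0.09, edgeR adjusted p = 9.01e-08), and CYCS, cytochrome c, had a change of -0.13 and did not pass. Of 4 subunits of complex II, which feeds electrons to ubiquinone, 3 fell, where 32.4% of all genes tested were called lower. They were SDHB, the iron-sulfur subunit (-0.70), SDHA, the flavoprotein (-0.72), and SDHC, a membrane anchor (-0.30). With TPM scaling SDHC was at 0.00.

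Assembly factors went both ways, where 32.4% of all genes tested were called lower and 36.1% higher. Of 6 for complex III, 2 fell and 1 rose: UQCC3, needed for early assembly with cytochrome b, fell from 40.5, 30.5 and 32.4 CPM to 15.1, 11.2 and 12.2 CPM (log2 difference -1.42, SE 0.13, edgeR adjusted p = 1.19e-07). BCS1L, which inserts UQCRFS1, fell by 0.39 and TTC19, which clears fragments of UQCRFS1, rose by 0.64. Of 29 tested on the list for complex IV, 15 fell and 3 rose (median -0.21), with TACO1, an activator of MT-CO1 translation, at -1.06, COA6, a factor of copper delivery, at -0.86 and COA4, a small factor of the intermembrane space, at -0.76. These counts include NDUFA4 (-0.205, called lower), a subunit of complex IV rather than an assembly factor, whose symbol the rule does not take. Of 5 for ATP synthase 3 fell and 1 rose, with FMC1, whose yeast counterpart helps to build the F1 head, at -0.64, ATPAF2, which acts on the alpha subunit, at -0.57 and TMEM242, which works in building the c ring, at 0.72. With TPM scaling BCS1L was at -0.09 and did not pass (edgeR adjusted p = 0.336), and ATPAF2 was at -0.27 (edgeR adjusted p = 0.0438).

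Of 10 regulators of respiratory genes 5 fell and 2 rose, where 32.4% of all genes tested were called lower and 36.1% higher. ESRRA, a nuclear receptor that acts on these genes, fell from 112.6, 97.7 and 109.9 CPM to 48.2, 48.9 and 46.8 CPM (log2 difference -1.15, SE 0.08, edgeR adjusted p = 4.56e-09). PPRC1, a coactivator of the PGC-1 family, fell by 0.94. PPARGC1A, the founding member of that family, stood at 10.5, 12.7 and 12.7 CPM in control and at 20.6, 17.5 and 18.6 CPM in knockdown libraries and rose by 0.66 (SE 0.12, edgeR adjusted p = 0.000121). GABPA, the DNA-binding subunit of GABP, rose by 0.75. The other regulators that fell were PPARGC1B by 1.24, TFB2M by 0.52 and GABPB1 by 0.30. With the offsets PPARGC1A was at 0.09 and GABPA at 0.11, while ESRRA was at -0.90 and PPRC1 at -0.86. NRF1 had a change of -0.25 and did not pass (edgeR adjusted p = 0.0501), while TFAM had a change of -0.19 and YY1 one of 0.04, which did not pass either.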

How the data were processed

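RNA of 6 HepG2 libraries was sequenced with a SMARTER mRNA kit, per the labels' protocols. The table that the authors deposited holds raw counts per gene, exonic lengths and FPKM (counts per exonic length and library total), per the file headers. In 5 columns the deposited FPKM equalled that formula for 100% of genes (tolerance 0.0051). The other column of FPKM (1) names no replicate and was not used, and FPKM was recomputed from counts. No aligner or strand setting is given in the sources used. GRCm38, mm10 and hg18 stand without a role in the submitters' processing notes. Of gene identifiers 96.3% were in GENCODE 29 (GRCh38), and 99.98% of those overlapped its coordinates, so coordinates are GRCh38.

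Titles gave the groups. The shRNA labels of the knockdown libraries read circPRKAA1, circPRKAA2 and circPRKAA3. Separate cultures are not stated, so p-values measure the spread between libraries, which may be technical (chi-square per degree of freedom 3.56 to 14.7 within groups). edgeR 4.0.16 (R 4.3.3) was used with filterByExpr (minimum count 10, total 15), TMM and the quasi-likelihood test over all genes. Alternatives were other scalings and filters, DESeq2 1.42.0, limma 3.58.1, the mitochondrial genome left out, offsets from a smooth fit on length and GC content (mgcv 1.9.3), a replicate block and each library left out. Tested on counts simulated with the mean levels of these libraries (14728 genes, 200 changed, equally in both directions), edgeR recovered 90% with 9 false calls. The simulation held no GC effect, an equal spread for all genes and far fewer changes than these data, where 68.4% were called. It therefore does not measure how often the calls reported here are false. The members, lists and tests were chosen with earlier results of these data known. Named were all members by enzyme and up to 3 called genes with the smallest p per list. The marker genes and the other regulators named were added after their values were seen.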

Additional observations from a re-analysis of the deposited data

How the results depend on the processing

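Knockdown against control gave 9460 to 10576 called genes over the libraries left out and 8393 to 11036 over the other alternatives (10257 as reported). The count of members called lower, 28 as reported, was 14 with TPM scaling and 21 to 29 under the other scalings, filters and models, 35 with the offsets, and 24 to 30 without each library. The count called higher, 2 as reported, was 4 with library totals, with quantile normalization and with limma on log2(FPKM + 1) or log2(FPKM + 0.1), 10 with TPM scaling, and 1 with median of ratios, with no filter on low counts, with DESeq2, with the offsets and with the replicate block, and 1 to 2 without each library. Members called in either direction were 26 to 32 without each library. The subunit c shares changed by -7.48 to -6.28, 4.38 to 4.93 and 1.82 to 2.61 points for ATP5MC1, ATP5MC2 and ATP5MC3 without each library. The nuclear over mitochondrial ratio was -0.41 for complex III and -0.46 for complex IV with raw counts in place of FPKM, and -0.49 to -0.45, -0.56 to -0.48 and -0.55 to -0.47 for complex III, complex IV and ATP synthase without each library.

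Of 684 changes of single members under the alternatives, 571 kept their direction and side of the threshold, 45 lost the call, 21 gained it and 47 had the other sign. The changes with the other sign were, with TPM scaling, ATP5F1E 0.018, ATP5IF1 0.062, ATP5MG 0.19, ATP5PB 0.061, ATP5PO 0.27, COX4I1 0.15, COX7A2 0.27, COX7A2L 0.10, COX7B 0.23, COX7C 0.17; with library totals, ATP5MG 0.090, ATP5PO 0.17, COX4I1 0.051, COX7A2 0.18, COX7A2L 0.0081, COX7B 0.13, COX7C 0.075; with limma on log2(FPKM + 1), ATP5MG 0.087, ATP5PO 0.16, COX4I1 0.050, COX7A2 0.17, COX7A2L 0.006, COX7B 0.12, COX7C 0.071, and on log2(FPKM + 0.1), ATP5MG 0.089, ATP5PO 0.17, COX4I1 0.051, COX7A2 0.17, COX7A2L 0.0062, COX7B 0.13, COX7C 0.072. After quantile normalization they were ATP5F1A 0.062, ATP5MG 0.080, COX4I1 0.11, COX7A2 0.15, COX7A2L 0.049, COX7C 0.11, with the offsets ATP5PD -0.10, COX6C -0.055, UQCRB -0.35, at a mean FPKM of at least 1 ATP5PO 0.031, COX7A2 0.033, and with DESeq2 ATP5PD -0.012. Without each library in turn the sign also turned for ATP5PD (-0.014 to 0.061), ATP5PO (-0.082 to 0.024) and COX7A2 (-0.11 to 0.053). The cause was not tested. Deviations of same-numbered libraries showed little correlation (-0.09, -0.15 and 0.04), but 3 libraries per group cannot settle whether the numbers carry a pairing. The numbers were therefore used as names of libraries, except in the replicate block. With that block 27 members were lower and 1 higher, COX7A2L (edgeR adjusted p = 0.0626) and COX6C (edgeR adjusted p = 0.0812) having lost their calls. Depth was not varied, and counting error was largest for UQCRHL, at 4.19% in control and 4.97% in knockdown libraries. The 3 libraries per group limit exact tests to p = 0.1, and the calls rest on the scaling chosen.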
